A study of Mus musculus with 1119 samples.

Results

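Gpnmb (ENSMUSG00000029816) encodes a transmembrane glycoprotein of melanosomes, late endosomes and lysosomes. It is the only gene described here, 1 of 46609 rows in the 3 deposited expression tables, and it was chosen by its level in hair bulb cells at postnatal day 30 (P30) and by the genes that follow it there. Because those values selected it, they are given as a description and without a test. The series measured RNA in sorted mouse skin cells on 17 plates, each cell sequenced as its own library by Smart-seq2, a full-length protocol in which a well holds 1 cell. Plates here were read from the prefixes of the cell titles, so prefixes such as 914hg and 914mat may be wells of the same plate. The cells cover the start of a hair growth cycle, from the resting phase (telogen) to full growth (anagen), and the authors assigned them to 6 types. Values are the authors' TPM, the share of a cell's transcripts that a gene takes, scaled so that every cell sums to 1000000.

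The P21 to P27 cells came from Lgr5-eGFPiresCreER;R26-tdTomato mice of mixed sex, in which the Lgr5 promoter drives a green reporter and a Cre. They comprised 39 telogen bulge stem cells and 71 telogen hair germ cells at P21, 89 hair germ cells of the first anagen stage at P23 to P27, and matrix cells of the second anagen stage at P25 to P27 (55, 76 and 68 on 3 plates). The P30 hair bulb cells (76, 78, 75, 74 and 81 on 5 plates), which the authors call matrix cells of the sixth anagen stage, came from Lhx2-GFP (CD1) mice of mixed sex. CD1 is an albino stock, whose melanocytes are present but make no melanin. The younger cells were sorted on GFP, tdTomato, the integrins α6 and b1, CD34 and P-cadherin, and the hair bulb cells on the same set with Sca-1 in place of tdTomato. The dermal papilla cells, the fibroblasts that the bulb encloses (87, 87, 86 and 77 on 4 plates), came from male K14-H2BGFP;LEF1-RFP mice at P30 and were sorted on both reporters, integrin α9 and CD117. Hair bulb, papilla and younger cells each have a table, a strain and a sort of their own, so type, strain, sort, table and plate cannot be told apart. The labels name no animal, so each type counts as 1 sample, and plates show the spread between plates, which may be technical or between mice.

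GPNMB is a relative of PMEL, the protein that forms the fibrils of the melanosome, and in melanocytes it is a known target of the transcription factor MITF. Macrophages and osteoclasts also express it, under the related factors TFE3 and TFEB, and its outer domain can be shed by the protease ADAM10 and can bind syndecan-4, CD44 and integrins. The hair bulb holds both candidate sources: matrix keratinocytes, which divide and then form the layers of hair and sheath, and the melanocytes that hand them pigment. The medulla is the core column of the hair. Foxq1, a forkhead factor needed for a normal medulla, Krt75, a keratin of the medulla and the companion layer, and Padi3, an enzyme that converts arginine in medulla and inner sheath proteins, mark that fate.

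In GENCODE M21 (GRCm38, the mm10 build) Gpnmb lies on the plus strand at chr6:49036546-49070929, with 5 annotated transcripts of which 2 are protein-coding. The main one, Gpnmb-201, has 11 exons and a coding length of 1722 bases. No annotated gene overlaps it, and the nearest protein-coding neighbour, Malsu1, starts 2866 bases beyond its end.

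The promoter windows of Gpnmb, of Krt75 and of Tyrp1, which encodes a melanosomal enzyme, are shown because the keratinocyte and the pigment genes are compared with Gpnmb throughout. Each runs from 250 bases before to 20 bases after the RefSeq start site (GRCm38.p6), 5′ to 3′ on the gene's strand, with capitals marking a match to a searched motif. Their positions are chr6:49036268-49036537 (plus), chr15:101573885-101574154 (minus) and chr4:80833963-80834232 (plus). The Gpnmb window follows the RefSeq start site and ends before the GENCODE gene start at 49036546. Gpnmb-201 starts at 49036615, so the window does not reach it.
Gpnmb: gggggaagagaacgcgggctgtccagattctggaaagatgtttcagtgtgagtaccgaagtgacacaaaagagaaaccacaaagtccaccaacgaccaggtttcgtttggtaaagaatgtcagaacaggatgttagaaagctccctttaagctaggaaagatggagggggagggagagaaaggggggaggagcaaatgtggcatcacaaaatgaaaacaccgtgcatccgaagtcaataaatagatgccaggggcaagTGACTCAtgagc
Krt75: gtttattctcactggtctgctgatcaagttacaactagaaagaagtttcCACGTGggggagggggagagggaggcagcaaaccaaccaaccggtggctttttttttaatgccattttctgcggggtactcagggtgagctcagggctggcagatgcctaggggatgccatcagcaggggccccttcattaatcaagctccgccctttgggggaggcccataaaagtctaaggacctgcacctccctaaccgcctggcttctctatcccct
Tyrp1: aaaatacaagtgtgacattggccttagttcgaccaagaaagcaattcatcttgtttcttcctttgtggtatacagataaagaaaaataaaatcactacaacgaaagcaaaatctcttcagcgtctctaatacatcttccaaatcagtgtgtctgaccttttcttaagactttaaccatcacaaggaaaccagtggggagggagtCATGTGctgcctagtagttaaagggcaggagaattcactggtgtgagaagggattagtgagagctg
On both strands 4 motifs were searched, and no 2 matches overlapped in these windows: the E-boxes CACGTG and CATGTG, which MITF and its relatives can bind, the AP-1 motif TGACTCA and the forkhead motif TGTTTAC. The Gpnmb window held TGACTCA and none of the others; this motif stood in 4.73% of 27025 promoter windows of the same length. The Krt75 window held CACGTG, found in 6.64% of windows, and the Tyrp1 window held CATGTG, found in 13.1%, as did the windows of Tyr and Dct. TGTTTAC, found in 3.31% of windows, was in none of these 5. Of other genes given below, Tgm6, Tgm3, Padi3, Mreg and Kitl were searched too, and their windows held none of the 4 motifs. These matches are a description, and a missing match says only that those letters are not in this window.

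Gpnmb was abundant in the P30 hair bulb and scarce in the other types. It was seen, which here means at least 1 TPM, in 69.3% of hair bulb cells (exact binomial 95% interval 64.4 to 73.9%, which covers counting error only), with a mean of 507 TPM, a median of 250.2 TPM and a maximum of 2454 TPM. In the other 5 types it was seen in between 3.37% and 25.6% of cells, and no type mean exceeded 7.10 TPM. The mean level in the hair bulb was 71.4 times that in the bulge, the next highest type.

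**Figure D1:**
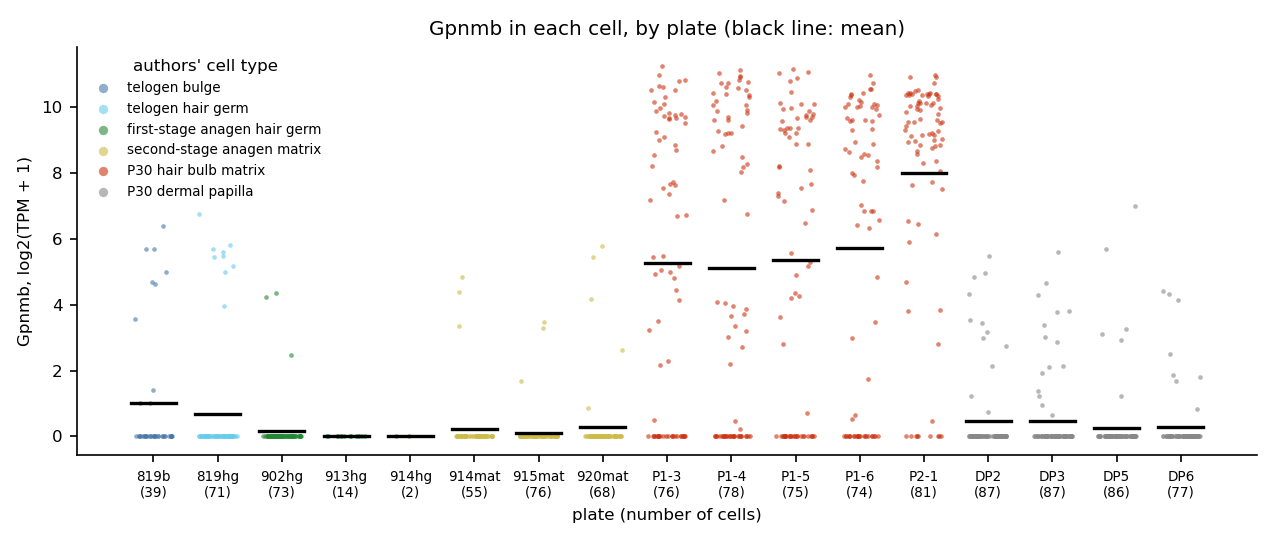
Gpnmb level, log2(TPM + 1), in each cell (points) by plate, coloured by the authors' cell type, with the plate mean as a black line and the number of cells in brackets. Each hair bulb plate holds a group of cells near 10 on this scale and a group at 0, and plate P2-1 holds the fewest at 0.

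All 5 hair bulb plates had means far above those of the other 12 plates. Plate P1-3 had a mean of 419.7 TPM, P1-4 of 500.5 TPM, P1-5 of 421 TPM, P1-6 of 456 TPM and P2-1 of 722 TPM. The transcript was seen in 50 of 76 cells of P1-3 (65.8%), 48 of 78 of P1-4 (61.5%), 48 of 75 of P1-5 (64%), 49 of 74 of P1-6 (66.2%) and 71 of 81 of P2-1 (87.7%). Plate P2-1 thus stood apart from the other 4, which differed little among themselves, and it also had more cells with Foxq1 (87.7%, against 53.8% to 63.5%) and with Mlana, a melanosome gene (60.5%, against 37.2% to 44%). Without it, the hair bulb mean was 449.9 TPM and 64.4% of cells had Gpnmb.

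Within the hair bulb the levels split widely. Gpnmb was under 1 TPM in 30.7% of cells, from 1 to 10 TPM in 12 cells, from 10 to 100 TPM in 37 cells and at 100 TPM or more in 56.5%, with 84 cells at 1000 TPM or more. Below those 84 cells, 61 were at 100 to 500 TPM and 72 at 500 to 1000 TPM. Among the cells with the transcript the median was 653 TPM.

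The next types in order were the bulge, with a mean of 7.10 TPM and Gpnmb in 10 of 39 cells, and the P21 hair germ, with 6.00 TPM and 9 of 71 cells. Their binomial intervals, 13 to 42.1% and 5.96 to 22.7%, overlapped. These intervals cover counting error only and each type had 1 plate, so the order of the bulge and hair germ cannot be judged. The dermal papilla had a mean of 1.75 TPM, with plate means from 0.891 to 2.35 TPM, and Gpnmb in 11, 13, 6 and 7 cells of its 4 plates. The matrix at P25 to P27 had 0.998 TPM, with plate means from 0.279 to 1.77 TPM, and Gpnmb in 3, 3 and 4 cells of its 3 plates, so these plate ranges overlapped too. The first-stage hair germ was lowest at 0.471 TPM and 3 of 89 cells, and its 16 cells from P25 to P27 had none, which allows a share of up to 18.8%. Only 2 cells outside the hair bulb exceeded 100 TPM, a hair germ cell at 105.9 TPM and a papilla cell at 127.45 TPM.

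Library composition differed between the types as well. The median share of TPM on ribosomal RNA rows was 76.4% in the hair bulb and 54.3% to 68.2% elsewhere, and that on spike-in rows was 0.709% against 4.24% to 14.4%. With spike-in, ribosomal and mitochondrial rows left out and each cell rescaled to 1000000, the hair bulb mean was 2534 TPM and the highest other mean 21.2 TPM, a ratio of 120. The hair bulb was highest in both scalings. The median cell held 7392 genes seen in the hair bulb, and 5368 to 6903 in the other groups. The part of these differences in the Gpnmb levels was not tested.

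The few cells with Gpnmb elsewhere seldom had Foxq1, Krt75 or Mlana. Of the 10 such matrix cells at P25 to P27, 0 had Foxq1 or Mlana and 1 had Krt75, and of the 10 bulge cells 0 had any of the 3; 0 of 10 cells allows a share of up to 30%. Mitf, by contrast, was in 6 of those 10 matrix cells, against 43.4% of matrix cells without Gpnmb, in 9 of the 10 bulge cells, against 27 of the other 29, and in 20 of 37 papilla cells with Gpnmb, against 51% without. In the dermal papilla, 4 of the 37 cells with Gpnmb had Ptprc, the leukocyte surface marker CD45, and 3 had Foxq1. Of the other 300, 0 had either gene, which allows a share of up to 1%. Krt75 was in 2 of the 37 and 14 of the 300, and Padi3 in 3 and 15. All 33 papilla cells with under 2000 genes seen were among the 300. At least 3 of 16 macrophage markers were seen in 6 of these 37 papilla cells (16.2%) and in 12 of the 300 others (4.00%).

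As a check of the label, keratinocyte genes were common in the hair bulb: Krt5 was seen in 80.2% of cells, Cdh3, which encodes P-cadherin, in 88.5%, and the matrix factors Dlx3 and Msx2 in 89.1% and 83.1%. Krt14, which marks the basal layer, was in 51.8%. Ptprc was seen in 3 cells (0.781%). Of the 16 macrophage markers, 1 (Acp5, which encodes an acid phosphatase) was seen in 10% or more of the hair bulb cells, with a rho of 0.05 with Gpnmb in the ranking described next. Csf1r, the receptor that macrophages need, was in 1.56% of cells, and Itgax was in none of the cells ranked. The summed level of the 16 markers had a median of 12.4 TPM (0 to 181.35 TPM) in cells with Gpnmb and 13.7 TPM (0 to 3607 TPM) in cells without.

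The genes that followed Gpnmb from cell to cell were then ranked by Spearman's rho over the hair bulb cells with 2000 genes or more, all but 5, for 12870 genes seen in at least 10% of them. The cells share plates, strain and sort and are not replicates, so the values carry no test. Gpnmb itself had a rho of -0.05 with the number of genes in a cell. The 5 cells left out had 49 to 1524 genes and Gpnmb from 0 to 2082 TPM, and the 3 just inside the limit had 2333, 2372 and 2463 genes and 1999, 208.9 and 113.9 TPM. A rho of 0.2 or more was reached by 1464 genes (11.4%) and a rho of -0.2 or less by 2119 genes (16.5%), and the median gene was at -0.03.

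The strongest followers were keratinocyte genes of the hair core. Foxq1 ranked first of all 12870 genes with a rho of 0.90 (0.81 to 0.91 in the 5 plates), and Krt75 second with 0.89 (0.83 to 0.90). Tgm6 had 0.87 and Tgm3 had 0.86, both transglutaminases, the enzymes that cross-link hair proteins. Foxq1 was seen in 87.5% of the cells with Gpnmb and 11.2% of those without, at mean levels of 75.8 and 0.927 TPM. Krt75 was seen in 90.9% and 21.6%, at 140 and 2.13 TPM.

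The other 8 of the 12 highest genes were Ass1, which makes arginine's precursor (0.84), Soat1, which esterifies cholesterol (0.84), Csta1, a cysteine protease inhibitor of the stefin family (0.84), Cyfip2, part of an actin-regulating complex (0.83), Bambi, a decoy receptor of the TGF-β family (0.83), Mreg (0.83), B3gnt5, a glycolipid synthase (0.83), and Sptssb, a subunit of the sphingolipid-making serine palmitoyltransferase (0.82). Mreg encodes melanoregulin, a protein known from melanosome transport. Its rho lay between 0.78 and 0.84 in each plate, and it was seen in 94.7% of the cells with Gpnmb and in 42.2% of those without. B3gnt5 and Sptssb both act in the making of sphingolipids. Kitl, the ligand that melanocytes receive through KIT, stood at 0.80, with a median of 405 TPM in the cells at 1000 TPM or more of Gpnmb.

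**Figure D2:**
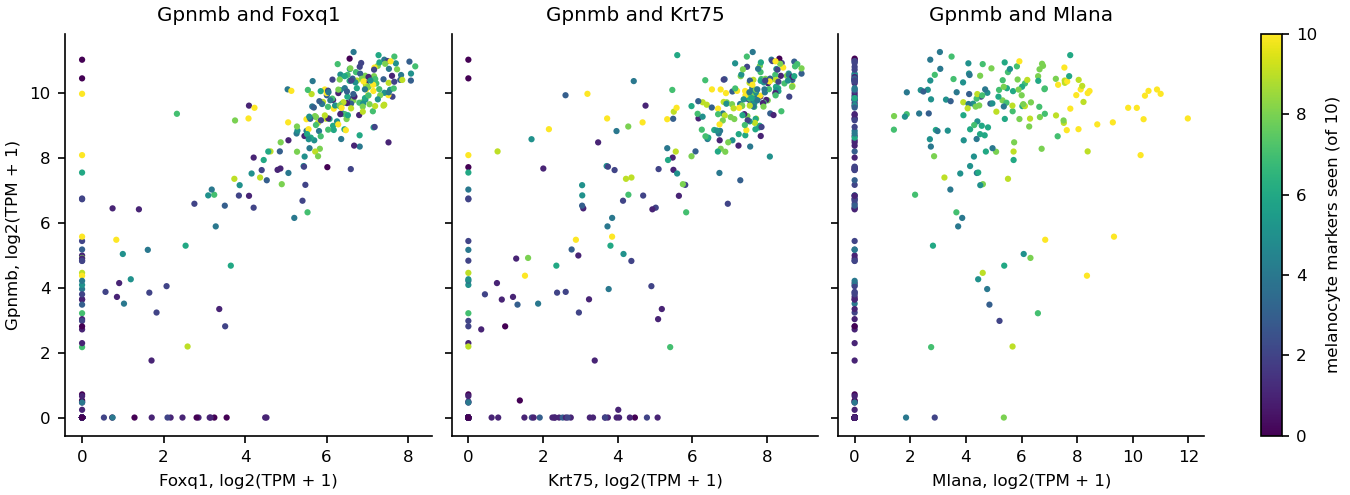
Gpnmb against Foxq1, Krt75 and Mlana, each as log2(TPM + 1), in the hair bulb cells of 5 plates (points), coloured by how many of 10 melanocyte markers were seen. Gpnmb is higher where Foxq1 and Krt75 are higher, and cells without Mlana lie at low and at high Gpnmb levels.

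By list, the medulla and companion layer genes stood highest. Of their 6 members 3 were measured, all 3 at a rho of 0.2 or more, with a median of 0.89, against 11.4% of all genes; Krt6a, Krt6b and Krt16 were each seen in under 5% of cells. Padi3, the third measured, was at 0.75. The other 2 are Foxq1 and Krt75, which rank first and second, and the list median is the rho of Krt75. The lists were also chosen with earlier results of these data known. The place of this list therefore restates the ranking and is no separate support. Of the 11 measured matrix genes 7 were at 0.2 or more, against 11.4% of all genes, and 2 at -0.2 or less, against 16.5%. Their median was 0.25, and the highest were the repressor Prdm1 (0.77) and the homeobox factor Hoxc13 (0.74), which controls hair keratin genes. Among 6 measured hair shaft genes 3 were at 0.2 or more, S100a3 at 0.77, Krtap8-1 at 0.38 and Krt35 at 0.31, and 9 of the 15 members were seen in too few cells to be ranked.

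Inner root sheath genes were mixed, with a median of 0.12. Of 7, 3 were at 0.2 or more, against 11.4% of all genes, and 1 at -0.2 or less, against 16.5%. Tchh, the trichohyalin shared by inner sheath and medulla, was at 0.68, and Gata3, a factor that specifies the inner sheath, was at -0.50. Basal keratinocyte genes went both ways, with a median of -0.009. Of 12, 5 were at 0.2 or more, against 11.4% of all genes, and 3 at -0.2 or less, against 16.5%. The 5 were Krt17 (0.59), the desmosome gene Dsp (0.57), Itgb4 (0.39), Itga6 (0.30) and Perp (0.20). The 3 were Krt15 (-0.49), Krt14 (-0.35) and Krt5 (-0.32). Of 6 outer root sheath genes 5 were at -0.2 or less, against 16.5% of all genes, Lhx2 at -0.46 among them. Their median was -0.36. Lhx2 is the gene whose reporter was used in the sort.

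**Figure D3:**
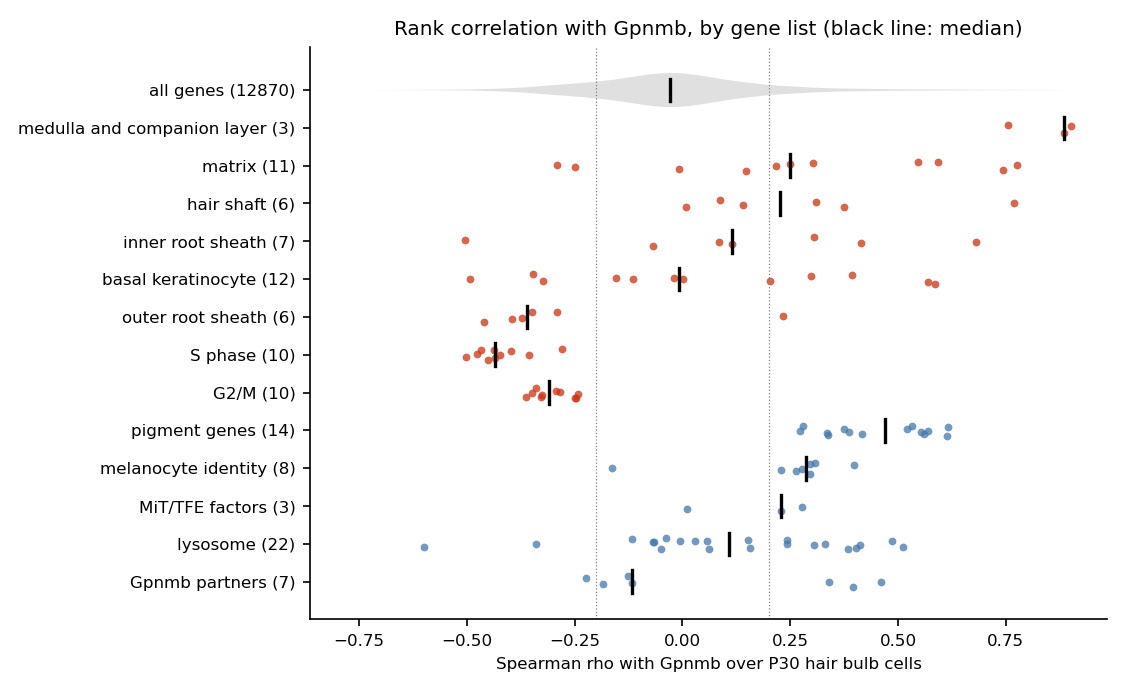
Spearman rho with Gpnmb over the hair bulb cells of 5 plates for all 12870 genes (grey) and for the measured members of each list (points: red keratinocyte and cell cycle lists, blue pigment, lysosome and interaction lists), with medians as black lines and dotted lines at -0.2 and 0.2. The medulla genes lie to the right of the pigment genes, and the S phase genes lie wholly to the left.

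The lowest genes included transcription factors and receptors. Nfib, a nuclear factor known from hair follicle stem cells, was last of all, with a rho of -0.78 (-0.84 to -0.70 by plate), and its relative Nfix had -0.70. Notch1, a receptor of cell fate signalling, had -0.71, and it was seen in 30.8% of the cells with Gpnmb and in 93.1% of those without. Mat2a, which makes S-adenosylmethionine, had -0.70, Cmah, a sialic acid hydroxylase, -0.67, and the growth factor receptor Fgfr1 -0.66. All 10 S phase genes and all 10 G2/M genes were at -0.2 or less, with medians of -0.44 and -0.31, against 16.5% of all genes. Mcm6, part of the replicative helicase, was at -0.50 and Mki67, the proliferation antigen Ki-67, at -0.35. Of the 4 G2/M genes also examined among cells with under 3 of the 10 melanocyte markers given below, 3 had the other sign there, Mki67 at 0.036, Cenpf at 0.028 and Cdk1 at 0.022, and Ccna2 stayed below 0.

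Cycling genes were least common in the cells with the highest Gpnmb, and not steadily so along its range. Mki67 was seen in 58.5% of cells under 1 TPM of Gpnmb, 78.4% at 10 to 100 TPM, 82% at 100 to 500 TPM, 48.6% at 500 to 1000 TPM and 16.7% at 1000 TPM or more. Notch1 was in 91.5% of cells under 1 TPM of Gpnmb and in 27.9% at 100 to 500 TPM. Foxq1 was in 93.4% of cells at 100 to 500 TPM, and Tgm6 in 65.6% there but in 97.6% at 1000 TPM or more. The cell cycle inhibitor Cdkn1a had a median of 0 TPM under 1 TPM of Gpnmb and 130 TPM at 1000 TPM or more. Along the Gpnmb range, Krt75 (88.5%) and Foxq1 were thus in most cells at 100 to 500 TPM, and Tgm6 passed 90% only at 500 TPM and above. At 10 to 100 TPM, Krt75 was already in 73% of cells and Foxq1 in 40.5%. Tgm6 was also less abundant than Krt75, with medians of 4.48 and 48.8 TPM at 100 to 500 TPM of Gpnmb. The part of abundance in these shares was not tested.

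**Figure D4:**
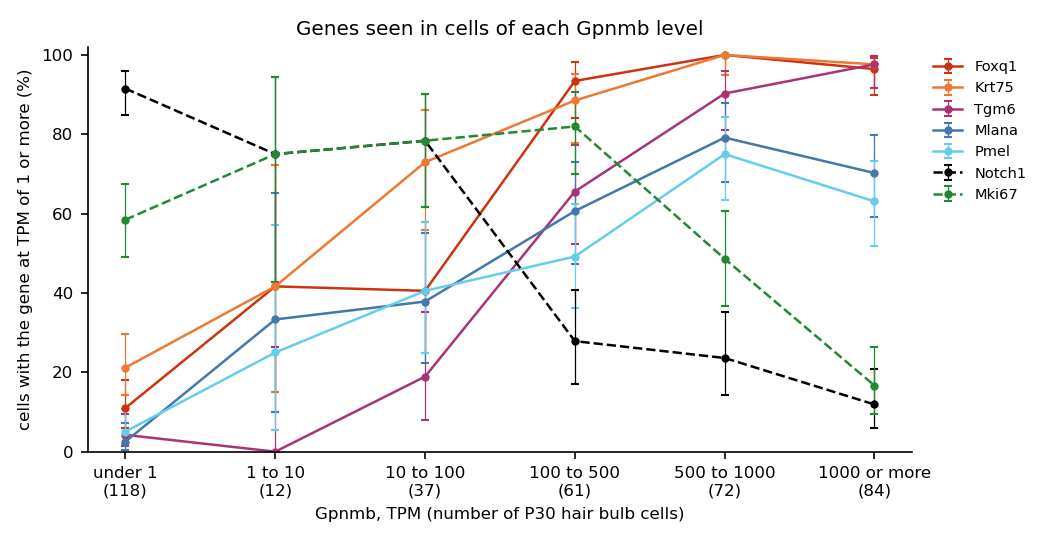
Share of hair bulb cells in which each gene was seen (TPM of 1 or more), in 6 bands of Gpnmb level with the number of cells in brackets; bars are exact binomial 95% intervals, which cover counting error only. Foxq1 reaches 93.4% at 100 to 500 TPM, and Mki67 is at 82% there and at 16.7% in the top band.

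The pigment genes also followed Gpnmb, at a lower rank. All 14 were at a rho of 0.2 or more, against 11.4% of all genes, with values from 0.27 to 0.62 and a median of 0.47. Dct, which makes a melanin precursor, was highest at 0.62, Trpm1, a cation channel of melanocytes, had 0.61, Mlana 0.57, and Pmel 0.52. Mlana was seen in 64.6% of the cells with Gpnmb and in 2.59% of those without. In plate P2-1 the list median was 0.30, and in the other 4 plates it was 0.44 to 0.51. Mlana was seen in 0 cells of the 4 types from P21 to P27 and in 0.890% of papilla cells, so of the 6 types it too was common in the hair bulb alone.

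Genes of melanocyte identity were weaker. Of 8, 7 were at 0.2 or more, against 11.4% of all genes, with a list median of 0.29. The endothelin receptor Ednrb was highest at 0.40, with Mc1r at 0.31, Sox10 at 0.30 and Mitf at 0.28. Kit, the receptor that marks melanocytes and their stem cells, was at -0.16 and was seen in 30.8% of cells with Gpnmb and 38.8% of those without. Among the MITF relatives Tfeb was at 0.23 and Tfe3 at 0.01, and Tfec was in none of the cells ranked. Without the cells with 3 or more melanocyte markers, Mitf was at -0.062 and Tfeb at -0.076.

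The marker classes put both programmes side by side. A cell with at least 3 of 10 melanocyte markers (Mlana, Pmel, Tyr, Tyrp1, Dct, Slc45a2, Sox10, Trpm1, Oca2 and Gpr143) had Gpnmb in 96.1% of cases (interval 92.5 to 98.3%), and a cell with fewer had it in 38.5% (31.4 to 46.1%), with 53.4% of hair bulb cells in the first class. With 0 markers the share was 11.1% of 45 cells, with 1 it was 37.6% of 85, with 2 it was 65.3% of 49 and with 3 it was 82.6% of 23. In plate P1-3 the 2 shares were 94.4% and 40%, in P1-4 97.1% and 34.1%, and in P1-5 94.9% and 30.6%. In P1-6 they were 97.3% and 35.1%, and in P2-1 96.6% and 63.6%. The lowest plate of the first class was above the highest of the second.

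All 3 medulla markers (Foxq1, Krt75 and Padi3) were seen in 58.9% of hair bulb cells, of which 98.2% had Gpnmb, at a mean of 832 TPM. With 2 of the 3 markers the mean was 32.3 TPM in 38 cells, with 1 it was 24.2 TPM in 61 cells, and with 0 it was 67.2 TPM in 59 cells, where 2 of the cells left out of the ranking, at 2082 and 1398 TPM, made up most of the sum. By plate, Gpnmb was seen in 95% to 100% of cells with all 3 markers and in 13.8% to 33.3% of the others. These 3 genes are among those ranked by likeness to Gpnmb, so the contrast restates their correlation as counts of cells.

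Crossing both sets describes where Gpnmb was high; since Foxq1 and Krt75 rank first and second by rho in these same cells, it is no comparison of the 2 programmes. Of 49 cells with all 3 medulla markers but under 3 melanocyte markers, 45 had Gpnmb, 37 had 100 TPM or more, and the mean was 640 TPM. With 2 or 3 medulla markers and under 3 melanocyte markers, 55 of 76 cells had Gpnmb, 39 had 100 TPM or more, and the mean was 421 TPM. Of the cells with both sets, 46.1% of the hair bulb, 100% had Gpnmb, 95.5% had 100 TPM or more, and the mean was 886 TPM. Of 17 cells with 3 or more melanocyte markers and under 2 medulla markers, 11 had Gpnmb, 3 had 100 TPM or more, and the mean was 94.4 TPM. Of the cells with under 3 melanocyte and under 2 medulla markers, 13.6% had Gpnmb and 3.88% had 100 TPM or more.

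**Figure D5:**
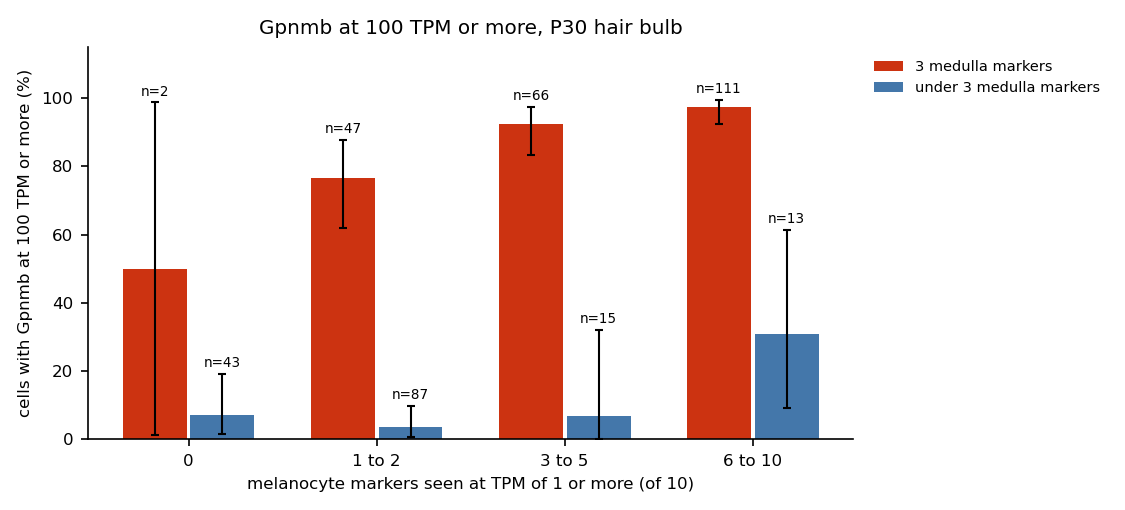
Share of hair bulb cells with Gpnmb at 100 TPM or more, by how many of 10 melanocyte markers were seen, for cells with all 3 medulla markers (red) and with fewer (blue); n is the number of cells and bars are exact binomial 95% intervals, which cover counting error only. Among cells with 1 to 10 melanocyte markers the red shares run from 76.6% to 97.3% and the blue from 3.45% to 30.8%; the red bar at 0 markers rests on 2 cells.

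Correlations within subsets, which were chosen after the values were seen, are given as values. A gene that defines a subset has a narrowed range in it, which by itself lowers its rho. Among cells with under 3 melanocyte markers, Foxq1 and Krt75 had a rho of 0.75 each, and Mlana had 0.06 and Pmel 0.15, while Dct had 0.58. Among those with 3 or more, Foxq1 had 0.82 and Mlana 0.19. Among cells with under 2 medulla markers, a subset that Foxq1 helps to define and where it had 0.02, Trpm1 had 0.56, Pmel 0.46 and Mlana 0.45. With ranks regressed on Foxq1 and Krt75, the summed melanocyte markers had a rho of 0.37 with Gpnmb (0.66 without the regression). With ranks regressed on those summed markers, Foxq1 had 0.84. Since Foxq1 and Krt75 rank first and second by rho in these same cells, these values are no comparison of the programmes. Foxq1 and the summed markers themselves had a rho of 0.59. Among cells with all 3 medulla markers, Gpnmb had a rho of -0.46 with the number of genes seen in a cell, whose part in these values was not tested.

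Nearly every Gpnmb cell had keratinocyte transcripts. Krt5, Krt14 or Krt17 was seen in 96.6% of the cells with Gpnmb and in 86.4% of those without. The 10 melanocyte markers summed to 1000 TPM or more in 18 cells, all with Gpnmb, from 46.6 to 1190 TPM with a median of 745 TPM. In 3 of these 18 the keratins Krt5, Krt14 and Krt17 summed to under 10 TPM, and Foxq1 was seen in 0 of the 3 while Krt75 was seen in 2. Their Gpnmb levels were 1005, 270.5 and 46.6 TPM, with Pmel at 6293, 2877 and 276.8 TPM. The other 15 had Foxq1 in every cell together with Gpnmb from 292.98 to 1190 TPM. Gpnmb was thus found in cells with pigment genes and almost no Krt5, Krt14 or Krt17, in 3 cells of this kind. Each well was sorted as 1 cell and no doublet caller was run; whether wells with both programmes hold more than 1 cell, or pigment transcripts from outside the cell, was not tested.

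Lysosome genes were mixed, with more on the positive side. Of 22, 9 were at 0.2 or more, against 11.4% of all genes, and 2 at -0.2 or less, against 16.5%, and their median was 0.11. The cathepsins Ctsd (0.51) and Ctsl (0.49) and the proton pump subunit Atp6v0d1 (0.40) were on the positive side, and Psap, the saposin precursor, was at -0.60. Of 7 measured interaction partners of GPNMB 3 were at 0.2 or more, with a list median of -0.12: Cd44 at 0.46, Itgav at 0.39 and Adam10 at 0.34, and Itga5 at -0.22 was the only member at -0.2 or less. Schwann cell, endothelial and papilla genes gave no member at 0.2 or more: 1, 0 and 5 of their 6, 4 and 12 members could be ranked.

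Over the 16 plates of 10 cells or more, the 5 genes of 10092 whose mean log2(TPM + 1) was most like that of Gpnmb were Krt75, Mlana, Trpm1, Atp13a4, a membrane P-type ATPase, and St8sia6, a sialyltransferase, each with a Pearson r of 0.99. These plates fall into 5 of the hair bulb and 11 others that differ in strain and sort, so the r describes mainly that contrast. Within the hair bulb, St8sia6 had a rho of 0.80 with Gpnmb and Atp13a4 0.47, so likeness over plates and over cells picked partly different genes.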

How the data were processed

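Expression was read from 3 tables of TPM deposited by the authors, 1 each for the P21 to P27, hair bulb and dermal papilla cells. Per the submitters' processing notes they used Bowtie2 2.2.9, RSEM 1.2.30 and mm10. TPM keeps no read depth, so no depth per cell was given. The papilla table parts its fields by a slash and a letter t and was read as such. All 1119 columns matched a sample, and no 2 cells held identical values.

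With Python 3.11.15, numpy 2.4.6, scipy 1.17.1 and pandas 2.3.3, means, log2(TPM + 1) levels, shares of cells with exact intervals, and Spearman correlations were computed; the correlation routine was tested on simulated data. Each type is 1 sample, so no test was run. Named genes are the 12 highest and 6 lowest by rho with the same sign in all 5 plates, without predicted models, pseudogenes, ribosomal protein and technical rows, up to 4 per list, and 5 alike over plates. Gpnmb, the lists and the rule were chosen with earlier results of these data known. The motifs, bands, subsets, Kitl, Cdkn1a and other genes outside the rule were chosen after their values were seen.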

Additional observations from a re-analysis of the deposited data

Results flagged for a closer look

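Plate P2-1 of the hair bulb stood apart from the other 4 plates. Its mean Gpnmb level was 722 TPM, its mean log2(TPM + 1) was 8.0 and 87.7% of its cells had the gene, each farther above the next plate than the set limit for 5 values allows. Its share of cells with Foxq1, 87.7%, met the same criterion. Chance alone marks about 1 in 20 such groups, and these 4 measures come from the same 81 cells.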

How the results depend on the processing

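Leaving out each hair bulb plate gave 64.4 to 71.2% of hair bulb cells with Gpnmb, a log2 difference from the bulge of 4.36 to 5.12, 1396 to 1572 genes at a rho of 0.2 or more, 2088 to 2190 at -0.2 or less, medians of 0.88 to 0.90 for the medulla list and 0.45 to 0.57 for the pigment list (0.57 without plate P2-1), and Gpnmb in 95.8 to 96.4% of cells with melanocyte markers and 35.03 to 40.6% of the others. At a TPM of 10 or more, 3.02% of P25 to P27 matrix cells and 4.45% of papilla cells had Gpnmb. With a pseudocount of 0.1 the log2 difference was 6.45, against 4.91, since the bulge values are mostly 0. For the next changes the cause was not tested. Without cells with 3 or more melanocyte markers, 1154 genes were at -0.2 or less and the medulla median was 0.75. The median of the pigment genes still measured was 0.27, and that of all 14 was 0.16. In the cells kept, Krt75 ranked 4 and Foxq1 ranked 5 by rho. There Mki67 (0.036), Cenpf (0.028), Cdk1 (0.022), Mitf (-0.062) and Tfeb (-0.076) changed sign. Needing 2 markers gave 90.2% and 28.5% of cells with Gpnmb, needing 5 gave 99.3% and 49.8%, and markers and Gpnmb at 10 TPM gave 49.8% of the others. Of 917 such values for 72 named genes, 860 lay within the spread between plates of the value reported. That spread is the standard deviation of rho over the 5 plates. Another 52 lay outside it, and 5 were these changes of sign. Some of these values could hardly differ from the value reported. Ranking the genes seen in at least 5% or 30% of cells leaves the rho of each gene kept as it was. Leaving out 1 plate keeps most of the cells. The count of 860 is therefore no measure of robustness. A change of sign was counted only where the rho reported was at least 0.2 or at most -0.2. Weaker genes could cross 0 uncounted, as Tfe3 did, from 0.01 to as low as -0.017 with a plate left out. No paired analysis was possible because the replicate numbers follow accession order and only name cells, each type is 1 sample, and no test was run.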
